A study of Mus musculus with 6 samples.

Results

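Long noncoding RNAs were followed in mouse cerebral cortex through 8 of the 33274 gene rows of the count table. They were Firre, Malat1, Neat1, Miat, Snhg11, Gas5, Snhg1 and Pantr1, each taken by its gene symbol and each present as 1 row typed as noncoding RNA. Firre was named because its counts differed between the lineages in these same libraries, so its difference is described here and not tested. The other 7 were named as well-known RNAs of the same class, to see whether the difference in Firre extended to them. The samples were 6 poly(A)-selected libraries of cortex from females of the outbred ICR stock, wild type and 6 weeks old. In the saline lineage (3 libraries) the grandsire had received saline at 10 mL/kg, and in the methylphenidate lineage (3 libraries) methylphenidate at 15 mg/kg, a blocker of dopamine and noradrenaline reuptake, both under the skin for 21 days from 6 weeks of age. Treated males and their sons were bred with undosed females, so the mice sequenced were grandoffspring (F2) that received no drug themselves.

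Long noncoding RNAs are transcribed like messenger RNAs, and many are also spliced, but they are not known for a protein product. Several of them stay in the nucleus. Malat1 lies in nuclear speckles, where splicing factors are stored, and Neat1 is the scaffold of paraspeckles. Miat, also called Gomafu, is a neuronal RNA held in the nucleus. Firre is transcribed from the X chromosome, is made largely of repeats that bind the nuclear matrix protein Hnrnpu, and takes part in the anchoring of the inactive X chromosome. Gas5, Snhg1 and Snhg11 are host genes, whose introns carry small nucleolar RNAs (snoRNAs). The spliced RNAs of Gas5 and Snhg1 are known to reach the cytoplasm and to be degraded by nonsense-mediated decay, so not all 8 are nuclear RNAs. Whole-tissue counts do not show where in the cell an RNA lies.

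The repeat of Firre is shown because it is the part of this RNA by which it is known to hold Hnrnpu. In the longest Firre transcript of GENCODE M21, Firre-206 with 5555 bases, the 20-base word that recurs most often was found 10 times. The word stood in 6 of the 10 annotated Firre transcripts and, on either strand, in the transcripts of 0 other genes among 55341 searched. Between neighbouring copies of the word, 4 stretches were 154 or 155 bases long and 94.8 to 98.1% identical to each other. They are printed 5′ to 3′ from the reference strain, with the recurring word in capitals:
Firre unit 1: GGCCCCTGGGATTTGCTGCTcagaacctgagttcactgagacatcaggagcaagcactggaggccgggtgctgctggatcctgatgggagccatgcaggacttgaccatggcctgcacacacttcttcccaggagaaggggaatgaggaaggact
Firre unit 2: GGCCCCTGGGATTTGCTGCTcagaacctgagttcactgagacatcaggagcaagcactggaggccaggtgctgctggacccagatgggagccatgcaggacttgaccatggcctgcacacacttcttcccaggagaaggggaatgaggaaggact
Firre unit 3: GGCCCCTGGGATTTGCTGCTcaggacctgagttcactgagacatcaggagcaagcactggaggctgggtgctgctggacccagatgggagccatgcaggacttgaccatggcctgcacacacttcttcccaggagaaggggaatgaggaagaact
Firre unit 4: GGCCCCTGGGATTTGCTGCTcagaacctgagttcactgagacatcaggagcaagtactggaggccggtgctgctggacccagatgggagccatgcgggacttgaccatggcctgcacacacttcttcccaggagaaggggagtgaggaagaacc

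**Figure D1:**
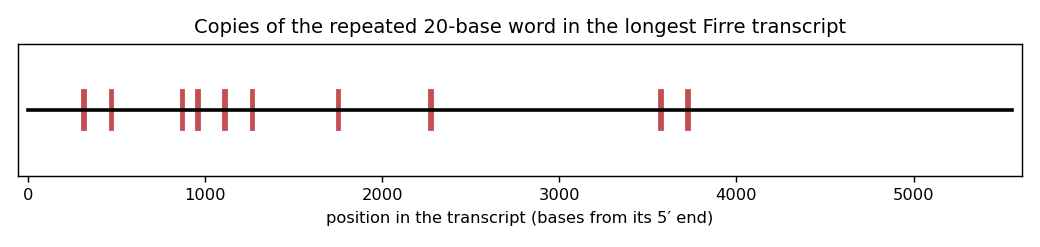
Positions of the recurring 20-base word (red bars) along the longest annotated Firre transcript (black line), in bases from its 5′ end. The 10 copies lie between bases 305 and 3717, and the last part of the transcript holds none.

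Reads that fall in one repeat unit can fit several others, and the sources used here do not say how such reads were counted. All copies lie within the same gene, however. Over all 10 Firre transcripts, 0.0% of the 7892 different 50-base words were found in the transcripts of any other gene, on either strand. Shared words made up 0.0% of Pantr1, 1.33% of Neat1, 2.40% of Snhg11, 5.21% of Gas5, 6.24% of Malat1 and 7.08% of Snhg1. The counts are per gene and do not tell the 10 annotated transcripts apart.

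The 300 bases around the start of Firre are shown as the region from which its RNA is made. RefSeq places them on the minus strand at chrX:50635272-50635571 in GRCm38.p6, a different build from the GRCm39 named for the counts, and the sequence is that of the reference strain and not of these ICR mice. Capitals mark the E-box CACGTG and the GC box GGGCGG, which do not overlap:
Firre promoter: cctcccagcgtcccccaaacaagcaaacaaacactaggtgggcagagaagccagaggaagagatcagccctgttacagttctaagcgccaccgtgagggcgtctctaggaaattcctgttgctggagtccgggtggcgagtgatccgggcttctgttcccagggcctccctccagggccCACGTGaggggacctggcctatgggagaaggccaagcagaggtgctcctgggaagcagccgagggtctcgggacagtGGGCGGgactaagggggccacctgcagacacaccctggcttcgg
The search covered both strands for these motifs and for the cyclic AMP response element TGACGTCA. The box known as CCAAT and the TATA box in the form TATAAA were searched in the same way. CACGTG stands in 7.2% and GGGCGG in 35.7% of the 32851 promoter windows of the same length, and the other motifs were not among the letters of this window. The window held 12 CpG dinucleotides, more than 60.4% of all windows.

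The saline libraries held 1111, 1600 and 1187 counts of Firre (replicates 1, 2 and 3, the order used throughout), and the methylphenidate libraries held 43, 105 and 59. Scaled to library size, these were 42.35, 62.6 and 49.15 CPM (counts relative to the TMM-scaled library size) in the saline lineage against 1.78, 3.69 and 2.43 CPM in the methylphenidate lineage. Every saline library was high and every methylphenidate library was low, with no overlap. The ratio of the group means was 19.5, and the fitted log2 fold change was -4.27 (SE 0.24, methylphenidate minus saline, as in all fold changes here). The RNA was still detected in the methylphenidate lineage, since a count of 0 allows no more than 0.106 to 0.124 CPM in a library (3 counts, counting error only).

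Among the 4111 noncoding rows of the table, Firre ranked 26 by its mean CPM in the saline lineage against 364 in the methylphenidate lineage. Its fold change was the largest in size among the 1232 noncoding rows tested and ranked 2 among all 18327 genes tested. Of the 8 RNAs, 1 (Firre) was past the threshold of 0.05 on the adjusted p of edgeR's quasi-likelihood fit, against 0.0273% of all genes tested in either direction and 0.00546% lower, and no conclusion is drawn from that count because the same contrast had named Firre. Leaving out any 1 library gave log2 fold changes between -4.60 and -4.06.

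**Figure D2:**
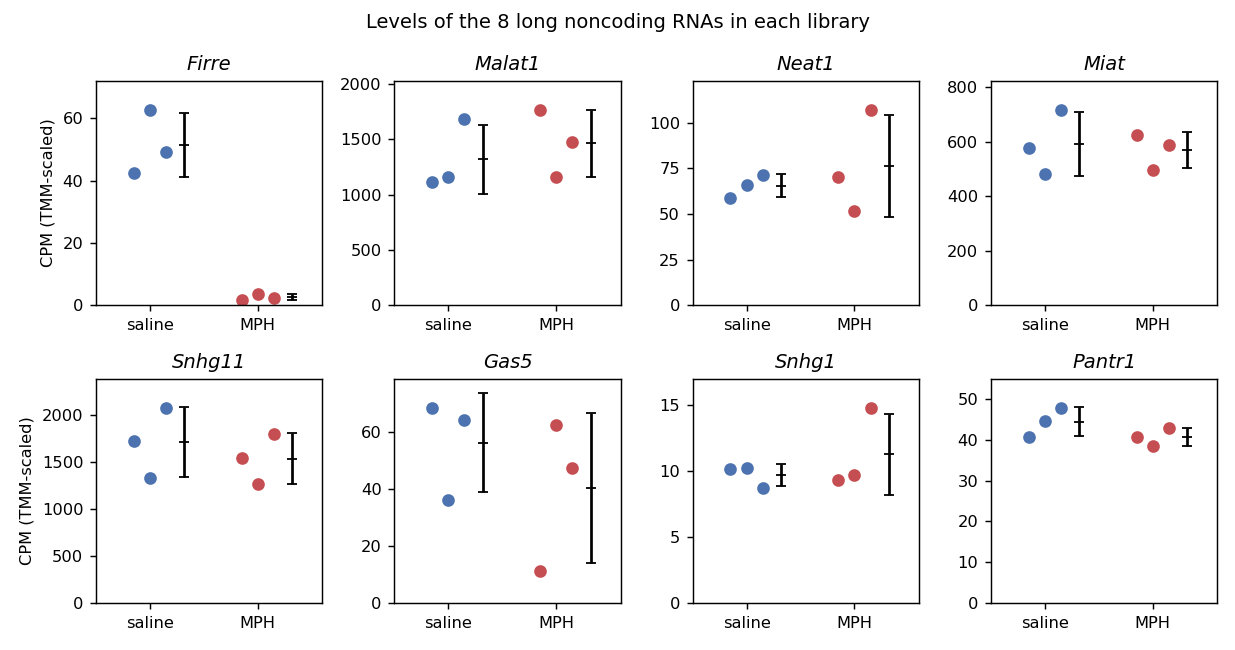
CPM of the 8 RNAs in each library (points, blue for saline and red for methylphenidate, MPH, in replicate order), with the group mean and SD (n = 3) to the right of each group. The methylphenidate libraries of Firre lie at 1.78 to 3.69 CPM, below all saline libraries, while in the other 7 panels the groups overlap.

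The other 7 RNAs overlapped between the lineages, and 0 of the 7 passed the threshold (edgeR adjusted p 0.799 to 0.958, and 0 with an unadjusted p under 0.05, where 7.51% of all genes tested had one). DESeq2 called 0 of the 7 as well, against 0.756% of all genes it tested. Groups did not overlap in 0 of the 7, against 13.5% of all genes tested. Their log2 fold changes ran from -0.48 to 0.22 with a median of -0.05, beside a median of 0.00 over all genes tested. The lowest end of any of the 7 intervals (95%) was -1.53, in Gas5. A p that misses the threshold does not show that these RNAs were the same in both lineages, and the intervals below give the changes that remain possible.

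**Figure D3:**
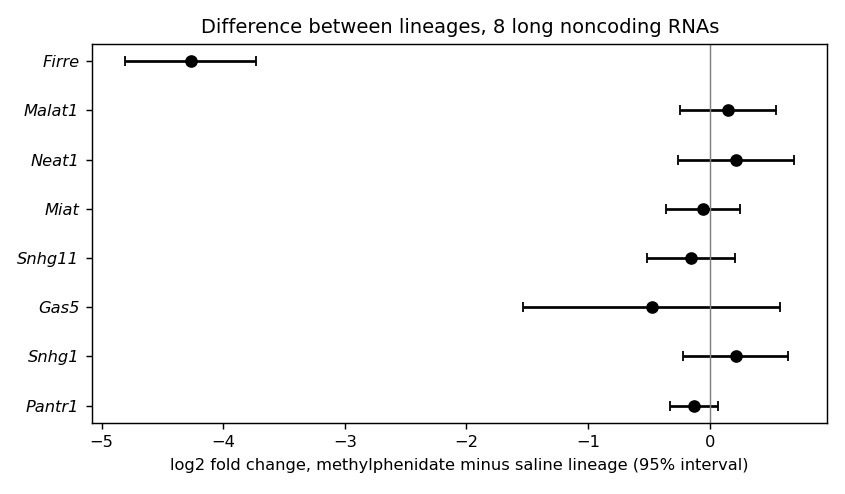
Fitted log2 fold change (points) with its 95% interval (bars) for the 8 RNAs, methylphenidate minus saline lineage. The 7 intervals other than that of Firre all contain 0, and the widest is that of Gas5, from -1.53 to 0.58.

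Among the RNAs of nuclear bodies, Malat1 had 1116, 1157 and 1681 CPM in the saline lineage against 1763, 1157 and 1477 CPM in the methylphenidate lineage. Saline replicate 3 and methylphenidate replicates 1 and 3 were high and the other 3 libraries low, so the high libraries were split between the lineages. For Malat1 the log2 fold change was 0.15 (SE 0.18, 95% interval -0.24 to 0.55, edgeR adjusted p = 0.888).

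Neat1, which is encoded next to Malat1 on chromosome 19, had 59.04, 66.0 and 71.6 CPM in the saline lineage against 70.5, 51.6 and 106.9 CPM in the methylphenidate lineage. Methylphenidate replicate 3 held the highest value and methylphenidate replicate 2 the lowest, so the saline libraries lay between the libraries of the other lineage. The log2 fold change was 0.22 (SE 0.21, 95% interval -0.26 to 0.69, edgeR adjusted p = 0.870), and it was -0.11 without methylphenidate replicate 3.

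The 3′ regions of Malat1 and Neat1 are shown because the libraries were made from poly(A) RNA. The mature Malat1 and the long form of Neat1 are known to end in a genome-encoded A-rich stretch that folds with U-rich motifs, without a poly(A) tail, whereas the short form of Neat1 is polyadenylated. How fully these RNAs were captured was not tested. The stretches come from GENCODE M21 transcripts, with the longest run of A within each stretch in capitals:
Malat1-201: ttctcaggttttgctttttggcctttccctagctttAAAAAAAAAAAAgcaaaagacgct
Neat1-201: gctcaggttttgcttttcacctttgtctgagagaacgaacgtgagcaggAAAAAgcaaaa
The Malat1 stretch spans bases 6638 to 6697 of 6983 and holds a run of 12 A, the longest in that transcript. The Neat1 stretch is the last 60 bases of 20771 and holds a run of 5 A.

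The RNAs of genes for proteins of the 2 nuclear bodies gave no call either. In a list of 16 paraspeckle genes, 0 passed the threshold, 6 had a log2 fold change above 0 and 10 below, and the median was -0.01. Of these, Hnrnpa1, Tardbp, Zc3h6 and Fam98a had the smallest p, with log2 fold changes of -0.13, -0.11, 0.26 and -0.12 and edgeR adjusted p of 0.715 to 0.794. In a list of 19 nuclear speckle genes, 0 passed, with 12 above 0 and 7 below and a median of 0.02. Srpk2, a kinase of splicing factors, had a log2 fold change of -0.16 (edgeR: SE 0.06, adjusted p = 0.604), the smallest p of that list.

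Among the neuronal RNAs, Miat had 576.7, 482.4 and 714.6 CPM in the saline lineage against 624.4, 495.6 and 588.7 CPM in the methylphenidate lineage. Replicate 2 was the lowest library of each lineage, and the saline range enclosed the methylphenidate range. For Miat the log2 fold change was -0.05 (SE 0.13, 95% interval -0.36 to 0.25, edgeR adjusted p = 0.958).

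Miat is known for copies of the branch-point-like word ACTAAC, written here as DNA, to which the splicing regulators Qki and Sf1 bind. The longest Miat transcript, Miat-205 with 9163 bases, held 11 copies on its own strand, while the median over the longest transcripts of 4189 genes with 5000 or more bases was 1. As many copies as in Miat were found in 0.215% of those genes, Miat included. The 90 bases with the densest copies, from base 5018 to base 5107, are shown with the word in capitals:
Miat-205: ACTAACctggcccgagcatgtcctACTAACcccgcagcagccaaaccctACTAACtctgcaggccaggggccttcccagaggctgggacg
In a list of genes for proteins that bind Miat or belong to the same splicing regulators, 5 members were tested and 0 passed. All 5 log2 fold changes were above 0, with a median of 0.04. Celf3, a neuronal RNA-binding protein, had a log2 fold change of 0.25 (edgeR: SE 0.09, adjusted p = 0.573), Celf2 one of 0.13 (edgeR: SE 0.06, adjusted p = 0.665), Sf1 one of 0.04 and Qki one of 0.02. Of the 50-base words of Miat, 24.2% are shared with 5 other annotated genes, among them the overlapping gene Gm26953, which had 24 counts in the saline lineage against 37 in the methylphenidate lineage.

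Snhg11 had 1724, 1333 and 2080 CPM in the saline lineage against 1544, 1269 and 1807 CPM in the methylphenidate lineage. As for Miat, replicate 2 was the lowest and the groups overlapped. For Snhg11 the log2 fold change was -0.15 (SE 0.16, 95% interval -0.52 to 0.21, edgeR adjusted p = 0.884). GENCODE M21 types Snhg11 as protein_coding, whereas the deposited table types it as noncoding RNA.

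In the same libraries, the summed CPM of 10 oligodendrocyte markers was 7854, 5739 and 7306 in the saline lineage against 7833, 5781 and 7465 in the methylphenidate lineage. Replicate 2 was thus the lowest library of each lineage in this sum as well as in Miat and Snhg11. The astrocyte and erythrocyte marker sums were also lowest there. The sum of 10 neuron markers was instead highest in replicate 2 of each lineage. It was 9090, 9273 and 8764 in the saline lineage against 8258, 8611 and 8135 in the methylphenidate lineage. The part of cell composition in the Miat and Snhg11 levels was not tested. In bulk tissue, fewer cells of a type and less RNA per cell cannot be told apart.

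Pantr1, which is transcribed next to the neuronal transcription factor gene Pou3f3, had 40.8, 44.7 and 47.8 CPM in the saline lineage against 40.7, 38.5 and 42.75 CPM in the methylphenidate lineage. Saline replicates 2 and 3 were above all 3 methylphenidate libraries, and saline replicate 1 lay among them. For Pantr1 the log2 fold change was -0.13 (SE 0.09, 95% interval -0.33 to 0.07, edgeR adjusted p = 0.799), the smallest standard error of the 8. Pou3f3, named here after its values were seen, had 171.3, 168.2 and 174.1 CPM in the saline lineage against 150.3, 155.2 and 151.6 CPM in the methylphenidate lineage. Its groups did not overlap, as in 13.5% of all genes tested, and it did not pass the threshold (log2 fold change -0.17, SE 0.06, edgeR adjusted p = 0.555).

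Among the snoRNA hosts, Gas5 had 68.3, 36.2 and 63.9 CPM in the saline lineage against 11.2, 62.2 and 47.25 CPM in the methylphenidate lineage. Methylphenidate replicate 1 stood apart with 271 counts, where the other 5 libraries had 925 to 1791. The log2 fold change was -0.48 (SE 0.47, 95% interval -1.53 to 0.58, edgeR adjusted p = 0.873), and without methylphenidate replicate 1 it was -0.04. Zbtb37, which overlaps Gas5 on the opposite strand, also had its lowest value there, 29.6 CPM, but had only 30.7 to 36.1 CPM in the other 5 libraries. The sources used here do not say whether the counting used strand, so reads of Gas5 and Zbtb37 where they overlap may not be separated.

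Snhg1 had 10.1, 10.25 and 8.74 CPM in the saline lineage against 9.33, 9.71 and 14.8 CPM in the methylphenidate lineage. Methylphenidate replicate 3, which also held the highest Neat1 value, was above the other 5 libraries. The log2 fold change was 0.22 (SE 0.19, 95% interval -0.22 to 0.65, edgeR adjusted p = 0.860). Its nearest neighbour Slc3a2, which encodes the heavy chain of amino acid transporters, had a log2 fold change of 0.00 (edgeR: SE 0.07, adjusted p = 0.995).

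Over a list of 20 snoRNA host genes, 18 were tested and 0 passed the threshold, with 13 log2 fold changes above 0, 5 below and a median of 0.08. Gas5, Snhg1 and Snhg11 are among the 18, and the other tested hosts recur in the wider set of long noncoding RNAs below. Snhg20 had the smallest p of the list, with 13.3, 13.1 and 15.1 CPM in the saline lineage against 19.3, 16.1 and 18.0 CPM in the methylphenidate lineage (log2 fold change 0.36, SE 0.12, edgeR adjusted p = 0.549). Genes of nonsense-mediated decay, the route that removes spliced Gas5 and Snhg1, had over 15 tested a median of -0.07, 4 above 0 and 11 below, with 0 past the threshold. Rbm8a, a core protein of the exon junction complex, had one of -0.23 (edgeR: SE 0.09, adjusted p = 0.615). Genes of the nuclear exosome, which degrades nuclear RNA, had a median of -0.01 over 18 tested and 0 past the threshold. Exosc9, a subunit of its ring, had a log2 fold change of -0.51 (edgeR: SE 0.18, adjusted p = 0.585).

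To compare levels between genes, CPM was divided by the exon length of each gene in GENCODE M21, which gives levels in CPM per kilobase. On this scale, in the saline lineage Snhg11 (200.9 ± 43.8, SD, n = 3) and Malat1 (188.7 ± 45.1) stood highest, and their libraries overlapped. Miat followed at 63.6 ± 12.6, then Gas5 at 14.9 ± 4.6 and Pantr1 at 9.96 ± 0.79, and these last overlapped. Firre was sixth at 6.23 ± 1.25, below every library of Pantr1 and above every library of Snhg1 (3.27 ± 0.28) and Neat1 (3.16 ± 0.30), which overlapped each other. In the methylphenidate lineage Firre was last at 0.320 ± 0.118, below every library of Snhg1 (3.799 ± 1.029) and Neat1 (3.67 ± 1.35). The order of the other 7 was the same except that Malat1 (209.9 ± 43.4) and Snhg11 (180.7 ± 31.6), whose libraries overlapped, changed places. The exon length counts the long form of Neat1, so its value would be higher if most of its RNA were the short form.

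A wider set of 69 further long noncoding RNAs was fixed by name, of which 59 had a row and 49 were tested. None (0) passed the threshold in edgeR, and DESeq2 called 0, against 0.756% of all genes it tested. An unadjusted edgeR p under 0.05 was found in 4, all higher, where 769 of all 18327 genes tested were higher at such a p. The median log2 fold change was 0.07, with 34 above 0 and 15 below. The 4 were Snhg20, Six3os1, Tunar and 4933407K13Rik, the RNA of the X-linked Dxz4 repeat locus. The antisense RNA Six3os1 had a log2 fold change of 1.91 (edgeR: SE 0.68, adjusted p = 0.585) with 0.800, 0.508 and 0.373 CPM in the saline lineage against 3.815, 0.422 and 2.185 CPM in the methylphenidate lineage. Methylphenidate replicate 2 lay within the saline range. The summed CPM of 12 markers of striatal neurons, which lie below the cortex and include Six3, was also lowest in that library of its lineage (729, 435 and 928, against 458, 389 and 358 in the saline lineage), and its part in the Six3os1 values was not tested. Tunar, a neural transcript that the deposited table types as protein-coding, as it does Tug1 of the same list, had one of 0.41 (edgeR: SE 0.15, adjusted p = 0.585).

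Over all rows that the authors typed as noncoding RNA, leaving out the 8, 1224 were tested and 0 passed the threshold. Of them 35 were higher and 21 lower at an unadjusted edgeR p under 0.05, where 769 of all 18327 genes tested were higher and 607 lower. The groups did not overlap in 10.2%, against 13.5% of all genes tested. The median log2 fold change of these 1224 rows was 0.06, and over the 119 noncoding rows with a mean of at least 10 CPM, Firre among them, it was 0.00. Single rows of the 1224 ran from -3.23, in a row with a mean of 0.895 CPM, to 2.95, in a row with 0.886 CPM. Among the 119 the highest was 1.67, in a row with a mean of 59.7 CPM.

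**Figure D4:**
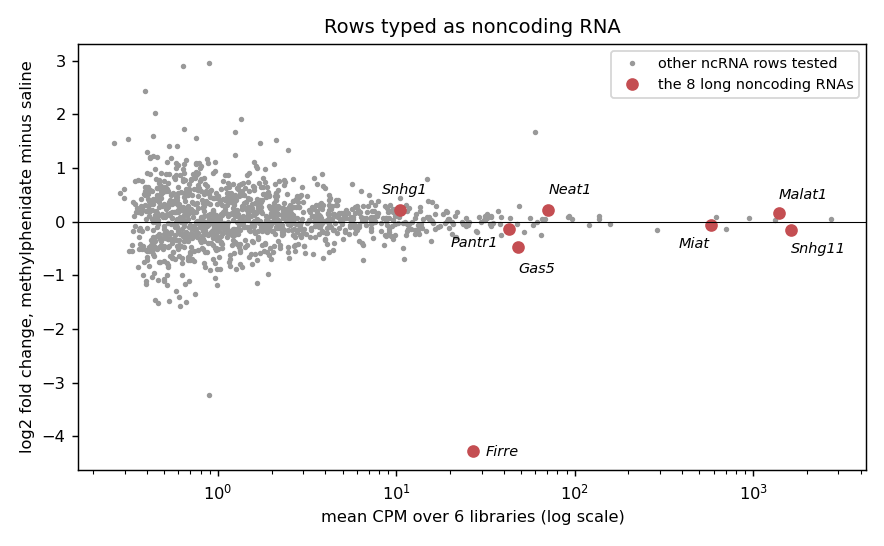
Mean CPM over 6 libraries (log axis) against the fitted log2 fold change for the 1232 noncoding rows tested, with the 8 RNAs in red and the rest in grey. Firre lies at -4.27, apart from the other 7, which lie between -0.48 and 0.22.

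Genes whose products work with Firre showed no call. In a list of 12 partners and architectural proteins, 0 passed the threshold, 2 had a log2 fold change above 0 and 10 below, and the median was -0.05. Hnrnpu had 487.0, 476.8 and 489.0 CPM in the saline lineage against 450.0, 457.2 and 498.9 CPM in the methylphenidate lineage, so the groups overlapped (log2 fold change -0.05, SE 0.06, edgeR adjusted p = 0.906). Ctcf, the zinc finger protein that with cohesin shapes chromatin loops, had 64.7, 68.4 and 64.3 CPM against 58.96, 60.6 and 54.9 CPM. Its groups did not overlap, as in 13.5% of all genes tested, and it did not pass (log2 fold change -0.18, SE 0.07, edgeR adjusted p = 0.630). Groups did not overlap in 3 of the 12 (25%), the others being the cohesin genes Rad21 and Stag2 (log2 fold changes -0.05 and -0.06).

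Firre RNA has been reported to contact the loci of Slc25a12, Ypel4, Eef1a1, Atf4 and Ppp1r10 on other chromosomes in mouse cells. The groups overlapped in all 5, and 0 of the 5 passed. Their log2 fold changes were -0.10, -0.10, 0.09, -0.05 and 0.14, each with a standard error of 0.07 to 0.09. The edgeR adjusted p lay between 0.781 and 0.906.

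Other X-linked RNAs were examined because Firre lies on that chromosome. By the breeding described, neither X chromosome of these females came from the grandsire, because sons take their X from their mother. Xist, which coats the inactive X, had 926.9, 893.7 and 963.0 CPM in the saline lineage against 1028, 966.5 and 938.4 CPM in the methylphenidate lineage (log2 fold change 0.08, SE 0.06, edgeR adjusted p = 0.849). Its groups overlapped, and Uty on the Y chromosome had 2 counts in 1 saline library and 0 in the others. The Dxz4 RNA 4933407K13Rik, from the other large repeat locus of the inactive X chromosome, had 2.52, 4.07 and 2.36 CPM against 5.81, 4.05 and 4.45 CPM, with groups that overlapped (log2 fold change 0.67, SE 0.27, edgeR adjusted p = 0.630). Over a list of 15 tested genes of X inactivation, 0 passed, with 7 above 0, 8 below and a median of -0.01. Genes that escape X inactivation had a median of -0.10 over 11 tested, with 3 above 0 and 8 below and 0 past the threshold. The median log2 fold change of the 612 X-linked genes tested was 0.02.

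Genes near Firre on the X chromosome were taken from a fixed list of 21 names, 16 of which were tested. In that list 0 passed the threshold, 10 had a log2 fold change above 0 and 6 below, and the median was 0.05. Igsf1 and Arhgap36, the nearest listed genes on one side, were the members with an unadjusted p under 0.05, and both were higher. In either direction, 7.51% of all genes tested had such a p. The nearest tested gene on that side was a pseudogene outside the list, Gm7803, with 29 counts in the saline lineage against 45 in the methylphenidate lineage. Its groups did not overlap, as in 13.5% of all genes tested, and it did not pass (log2 fold change 0.63, SE 0.46, edgeR adjusted p = 0.816). Igsf1, an immunoglobulin superfamily gene, had 2.74, 1.29 and 3.15 CPM in the saline lineage against 4.23, 4.61 and 3.96 CPM in the methylphenidate lineage (log2 fold change 0.83, SE 0.32, edgeR adjusted p = 0.606). The counts of Arhgap36 were 4, 0 and 0 in the saline lineage against 23, 29 and 29 in the methylphenidate lineage. Its groups did not overlap, as in 13.5% of all genes tested. The fitted log2 fold change of 4.21 (edgeR: SE 0.84, adjusted p = 0.216) depends on how the fit treats counts of 0 and does not pass the threshold. Stk26, the nearest listed gene on the other side, had a log2 fold change of -0.19 (edgeR: SE 0.28, adjusted p = 0.920), and Rap2c and Hs6st2 beyond it had 0.05 and 0.04.

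**Figure D5:**
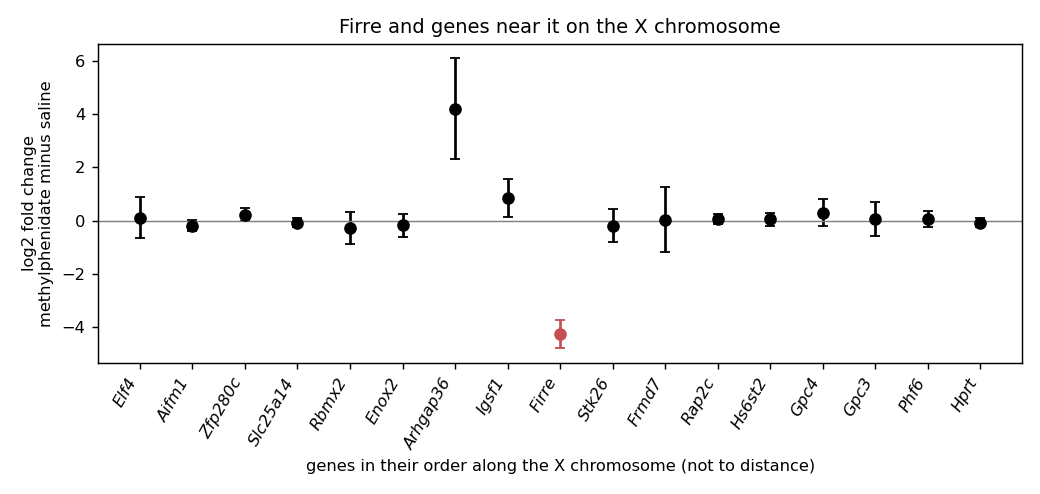
Fitted log2 fold change with its 95% interval for Firre (red) and 16 listed genes near it (black), in their order along the X chromosome and not to distance. Firre is at -4.27, while Igsf1 and Arhgap36 on one side lie above 0 and Arhgap36 has the widest interval.

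The genes whose pattern over the 6 libraries was most like that of Firre were found among 13811 genes with a mean of at least 1 CPM and an informative symbol. By Pearson's r on log2 CPM they were Atp5pb (r = 0.993), a subunit of mitochondrial ATP synthase, Nudt9 (r = 0.991), Spry2 (r = 0.991), an inhibitor of receptor tyrosine kinase signalling, Rab3ip (r = 0.989) and Sema3c (r = 0.987). The most opposed were Carmil3 (r = -0.992), Sbf1 (r = -0.990) and Slc46a1 (r = -0.990). All 8 had groups that did not overlap, which a high r with Firre requires here, and their log2 fold changes were small, from -0.24 to 0.38. None (0) passed the threshold (edgeR adjusted p 0.216 to 0.812). These values are a description over 6 libraries that share the split into lineages.

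Total counts were 23896752 to 28120640 per library, and the 8 RNAs together took 0.312 to 0.475% of them. Each marker in 12 cell type lists was detected in every library. Lists for striatum, choroid plexus and hippocampus are among them, so this detection does not mark the samples as cortex alone. The summed CPM of 8 choroid plexus markers was 314 to 1326 in the saline and 238 to 1031 in the methylphenidate lineage. The summed CPM of 10 neuron markers was 8764 to 9273 in the saline and 8135 to 8611 in the methylphenidate lineage. That of 7 oligodendrocyte precursor markers was 246 to 294 and 324 to 331, so these sums did not overlap. For single genes, the groups did not overlap in 13.5% of all genes tested. The sum of 12 striatal markers was 358 to 458 in the saline against 435 to 928 in the methylphenidate lineage. Of these markers, 10 were higher at an unadjusted p under 0.05 and 0 passed the threshold in edgeR. Over all 18327 genes tested, 769 were higher at such a p. In methylphenidate replicate 2 the striatal sum, 435, lay within the saline range, and Firre was at 3.69 CPM, below every saline library. That is 1 library, and the part of the striatal, neuron and precursor sums in the Firre difference was not tested.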

How the data were processed

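Cortex RNA of 6 mice was sequenced from poly(A) RNA with a directional kit, per the labels' protocols. HISAT2 2.2.1, StringTie 2.2.1, fastp 0.23.4, bcl2fastq 2.19 and the build GRCm39 are listed, per the submitters' processing notes. The sources used here give neither the annotation nor the strand setting. The values the authors deposited are whole-number counts per gene, not normalized, with 1 column per library.

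Groups came from the sample titles. The labels do not say which mice shared a litter or grandsire, so each p-value measures the spread among these libraries alone, which may be technical. Because ICR is an outbred stock, drug lineage is confounded with the genotypes of the founders, and these cannot be told apart here. Counts were fitted in R 4.3.3 with edgeR 4.0.16 (filterByExpr, TMM scaling, quasi-likelihood test, two-sided, Benjamini-Hochberg over the 18327 genes tested, threshold 0.05). CPM used TMM-scaled library sizes. The fit was also run on simulated counts with the same spread set for every gene, which does not show how it performs on these data. A chi-square of counts between libraries of 1 group, divided by its degrees of freedom, was 13.0 to 19.9, so no library was a copy of another of its group.

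The members and gene lists were chosen with earlier results of these data known. Named were the 8 RNAs, up to 4 tested genes of smallest p in each list, Firre's partners, contacts and neighbours, genes beside or overlapping a member, the 5 genes most like and the 3 most unlike Firre, and Xist. Of the 8, RefSeq promoter windows (GRCm38.p6) were found for Firre, Malat1, Miat, Snhg11, Gas5 and Snhg1. Transcripts and gene order came from GENCODE M21 (GRCm38), used for sequence, length and which genes neighbour each other. Alternatives were other scalings, filters, DESeq2 1.42.0, limma-voom (limma 3.58.1), a replicate block, leaving out each library, library sizes without mitochondrially encoded genes, and summed rows of a symbol.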

Additional observations from a re-analysis of the deposited data

How the results depend on the processing

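Over 16 alternatives the log2 fold change of Firre stayed between -4.60 and -4.06. The 7 other RNAs passed the threshold in 0 of 112 values (lowest adjusted p 0.575, over edgeR, DESeq2 and limma-voom), and 106 kept their direction. The other 6 changed sign when 1 library was left out, with log2 fold changes between -0.0017 and 0.37 for Malat1 (below 0 without methylphenidate replicate 1), -0.11 and 0.44 for Neat1 (below 0 without methylphenidate replicate 3), -0.18 and 0.10 for Miat (above 0 without saline replicate 3 or methylphenidate replicate 2), -0.30 and 0.0100 for Snhg11 (above 0 without saline replicate 3), and -0.0296 and 0.33 for Snhg1 (below 0 without methylphenidate replicate 3). Gas5 ranged from -0.94 to -0.04. The count of all genes past the threshold, 5, was 149 with DESeq2, 3 without a filter on low counts, 10 with total-count scaling, and 2 to 26 when 1 library was left out; the cause was not tested. With a replicate block it was 2. Whether the replicate numbers pair the samples was not settled. Same-numbered deviations correlated at -0.04, 0.09 and -0.02 and differently numbered ones at -0.11 to 0.13, which does not set the same-numbered pairs apart. The block changed no call among the 7. The further long noncoding RNAs past the threshold numbered 0 under every one of the 16 alternatives. The Firre values of the methylphenidate lineage rest on 43 to 105 counts per library.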

Other observations

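The snoRNAs encoded inside the host genes could not be followed in these counts. Of 18 snoRNA rows that overlap Gas5, Snhg1 or Snhg11 in GENCODE M21, 16 held exactly 1 count in each of the 6 libraries. The same was true of 97 of all 470 rows typed as snoRNA and of 365 of all 33274 rows. These are values of the deposited table, and the step that gave them was not traced. Gm25129, a snoRNA inside Snhg11, was the tested exception, with 56 saline against 59 methylphenidate counts (log2 fold change 0.09, SE 0.55, edgeR adjusted p = 0.982).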
